A study of Mus musculus with 6 samples.

Results

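The Hox cluster genes were studied through every cytosine of the methylation table that lay in 4 windows of the mouse genome (mm10). Each window covered 1 cluster and a margin on both sides: 115 kb of chromosome 6 for Hoxa, 180 kb of chromosome 11 for Hoxb, 125 kb of chromosome 15 for Hoxc and 110 kb of chromosome 2 for Hoxd. Measured sites ran over chr6:52150734-52263362, chr11:96190267-96368145, chr15:102920223-103039233 and chr2:74660700-74763767. The windows were set by position, not by any methylation value, although earlier results of these data were known. They held 3556 of the 890041 measured sites, which was 0.4% of the table. Of these, 1034 lay in Hoxa, 887 in Hoxb, 690 in Hoxc and 945 in Hoxd. All 39 Hox genes of the mouse lay in the windows, and each had at least 28 sites nearer to its own start than to that of any other protein-coding gene.

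The method was reduced representation bisulfite sequencing (RRBS): DNA is cut at CCGG and bisulfite converts unmethylated cytosines, so that methylated reads can be counted at each cytosine and given as a percentage. The tissue was dentate gyrus, micro-dissected from 6 female C57BL/6JRj mice aged 4.5 months, with 1 library per mouse. Housing was either enriched (ENR, 3 mice) or standard (STD, 3 mice), and the labels name no other treatment. ENR mice shared an enclosure, so that effects of enrichment and of the shared cage cannot be told apart. The table holds no expression values, so the dissected tissue could not be checked against marker genes, and bulk DNA cannot tell a change within cells from a change in the mix of cells.

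Hox genes encode homeodomain transcription factors that give cells along the head-to-tail axis their regional identity. The order of the genes on the chromosome follows the order in which they are used along the axis, and genes of the same number in different clusters, which form a paralogous group, descend from a shared ancestor. In the forebrain, which includes the hippocampus, these genes are largely silent in the adult. The clusters are rich in CpG and poor in repeats, and where they are silent they are commonly held by Polycomb proteins on DNA that carries little methylation.

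All 4 Hox clusters were almost free of methylation in the dentate gyrus. The mean over the 3556 sites was 4.25%, 4.20% and 3.99% in the STD libraries and 4.43%, 4.12% and 3.77% in the ENR libraries, whereas all other sites averaged between 21.4% and 24.4%. The 6 Hox values lay far below the 6 values of the remaining sites, and STD and ENR libraries overlapped. A site mean under 20% was found at 98.5% of Hox sites (3501 sites), against 69.8% of the others. A site mean over 80% was found at 5 Hox sites (0.141%), against 15.5% of the others. Means over the whole table were lowest in STD replicate 3 and ENR replicate 3, and the Hox mean was lowest in the same 2 libraries.

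The methylation level was similar among clusters. Hoxa measured 4.54%, 4.22% and 3.90% in STD and 4.30%, 4.48% and 3.74% in ENR. Hoxb measured 4.70%, 4.38% and 4.72% in STD and 4.68%, 4.26% and 4.35% in ENR. Hoxc gave 4.36%, 4.53% and 4.26% in STD and 4.80%, 4.60% and 3.96% in ENR. The lowest cluster was Hoxd, with 3.41%, 3.77% and 3.23% in STD and 4.09%, 3.25% and 3.11% in ENR. Hoxd lay below the other 3 clusters in every library, but its ENR replicate 1 exceeded the lowest libraries of Hoxa and Hoxc.

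**Figure D1:**
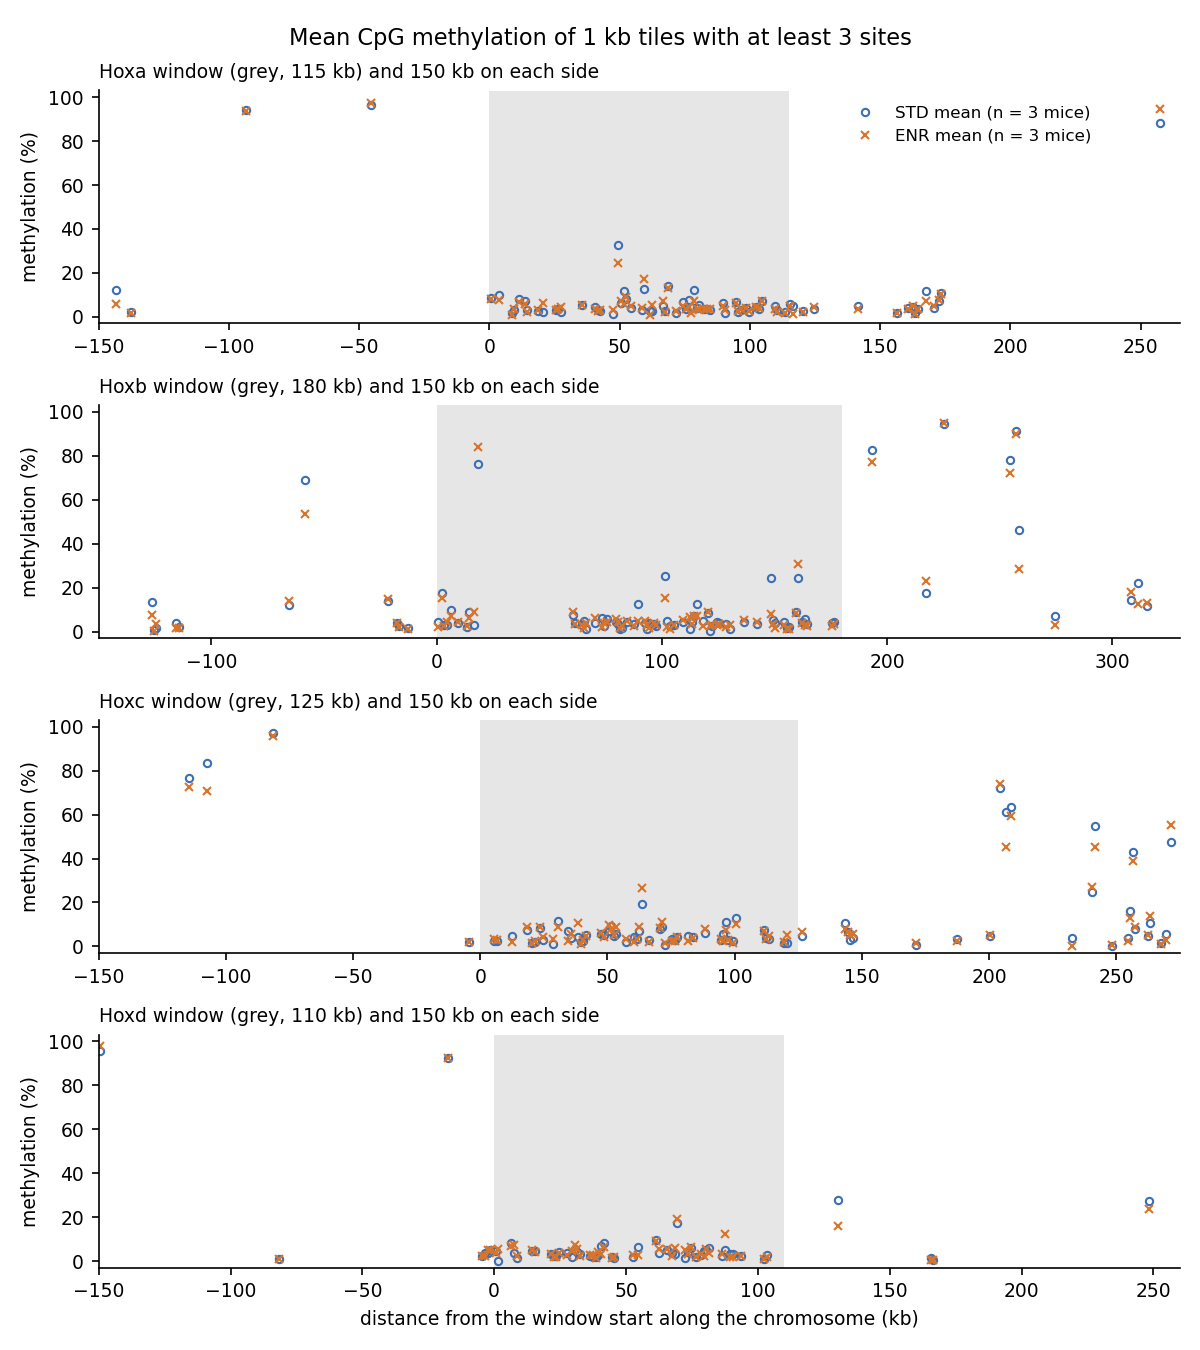
Mean methylation (%, vertical axis) of 1 kb tiles with at least 3 sites against the distance in kb from the start of each Hox window (grey), with 150 kb on each side. Circles are means of 3 STD mice and crosses means of 3 ENR mice. Of the 211 Hox tiles, 198 lay under 10%, and 1 tile in Hoxb reached 80.1%.

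The sequences behind this pattern are shown for a low and a high stretch. Promoters are the 250 bases before a RefSeq transcript start (GRCm38.p6, the build of mm10), and the set held 24 starts of 22 Hox genes. For Hoxa and Hoxd, the promoter with the most measured sites and no annotated untranslated region is printed. The highest 1 kb tile of all 4 windows, between Hoxb13 and Hoxb9, follows from 20 bases before its first site to 20 after its last. Capitals mark CpG, and each run is written 5′ to 3′ on the strand given.

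Hoxa5 promoter (chr6:52204588-52204837, minus strand): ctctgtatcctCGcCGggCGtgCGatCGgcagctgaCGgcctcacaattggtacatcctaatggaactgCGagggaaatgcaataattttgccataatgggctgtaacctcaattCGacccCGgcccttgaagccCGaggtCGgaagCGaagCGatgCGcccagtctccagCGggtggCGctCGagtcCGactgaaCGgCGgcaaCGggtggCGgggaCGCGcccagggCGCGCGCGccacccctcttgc
Hoxd11 promoter (chr2:74682073-74682322, plus strand): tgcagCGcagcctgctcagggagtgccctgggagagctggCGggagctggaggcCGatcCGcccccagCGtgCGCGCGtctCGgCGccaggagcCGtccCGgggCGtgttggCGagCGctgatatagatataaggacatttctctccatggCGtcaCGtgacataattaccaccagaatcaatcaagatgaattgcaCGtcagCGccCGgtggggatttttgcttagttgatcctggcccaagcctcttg
Hoxb intergenic stretch (chr11:96208558-96208788, plus strand): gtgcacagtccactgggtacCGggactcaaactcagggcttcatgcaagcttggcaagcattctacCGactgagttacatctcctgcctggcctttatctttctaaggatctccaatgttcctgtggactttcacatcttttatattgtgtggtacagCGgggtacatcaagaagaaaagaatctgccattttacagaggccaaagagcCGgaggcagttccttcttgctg

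The Hoxa5 promoter contained 28 CpG, and its 12 measured sites averaged 5.89%, from 0% to 17.2%. The Hoxd11 promoter contained 20 CpG, and its 28 measured sites averaged 2.16%, with the highest at 11.8%. The Hoxb stretch contained only 4 CpG in 231 bases, and its 4 measured sites lay between 67.0% and 90.9%. Over the 24 Hox promoters the median was 12.5 CpG per 250 bases, against 6 over all 32851 RefSeq promoters. The enzyme's motif CCGG, which reads the same on both strands, was in 18 of the 24 Hox promoters (75%) and in 47.1% of all promoters.

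Low methylation was not limited to gene starts. At sites within 1 kb of any transcription start, here called promoters, Hox sites averaged from 3.35% to 3.81% over the 6 libraries, and other sites from 5.72% to 6.69%. At 1 to 3 kb from a start, the 716 Hox sites averaged 5.12% over the libraries, while the 74238 other sites averaged 30.8%. Between 3 and 10 kb from a start, the 449 Hox sites still averaged 4.89% (4.44% to 5.24%), whereas the 98069 other sites averaged 47.5% (43.2% to 49.4%). Methylation rose with distance from starts in the rest of the genome, whereas in the Hox windows it stayed under 6% in every library at these distances. Only 3 Hox sites lay further than 10 kb from a start, all in Hoxb, and they averaged 84.6%.

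The same held for gene parts. Outside promoters, Hox exons averaged 4.87% (352 sites), Hox introns 4.78% (362 sites) and the DNA between Hox genes 5.87% (454 sites), whereas the respective means elsewhere were 41.5%, 46.3% and 55.4%. Sites were also called island-like where the 201 bp around them had at least 50% G and C and a CpG ratio (observed to expected) of at least 0.6. Of the Hox sites, 61.8% were island-like, close to the 56.2% of the others. Island-like promoter sites had nearly the same mean in the Hox windows (3.0%) and elsewhere (3.03%). Away from promoters, however, island-like Hox sites averaged 3.30% against 30.9% elsewhere, and Hox sites that were neither promoter nor island-like averaged 6.85% against 55.1%.

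**Figure D2:**
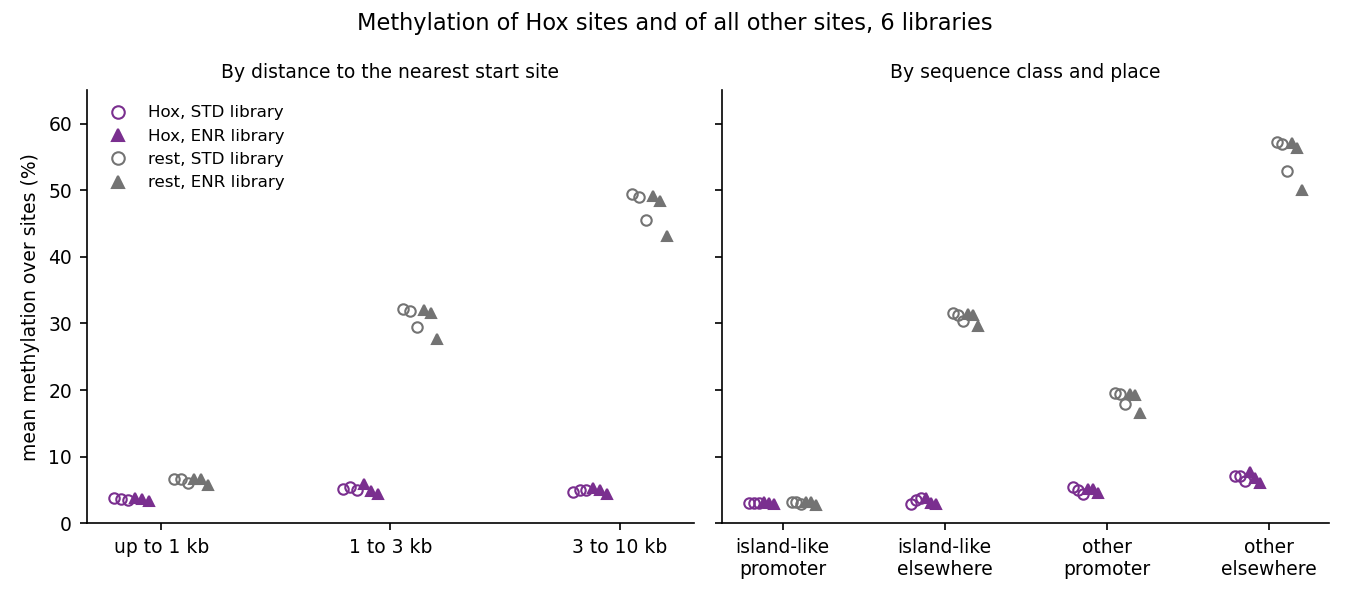
Mean methylation over sites (%, vertical axis) in each of the 6 libraries, for the Hox windows (purple) and the rest of the genome (grey), by distance to the nearest transcription start (left) and by island-like sequence and promoter (right). Open circles are STD and filled triangles ENR libraries. Hox means stayed under 8% in each class, while the other sites reached 57.3%.

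Hox sites were often at 0 in single libraries, but less often in all 6. In each library between 56.2% and 68.0% of Hox sites were at exactly 0, against 49.1% to 55.7% of the other sites. Over all classes, 680 Hox sites (19.1%) were at 0 in all libraries, compared with 29.8% elsewhere. In island-like promoters the median site was at 2.02% in the Hox windows and at 0% elsewhere. No methylated read in any of the 6 libraries was found at 23.3% of the Hox sites of this class, against 51.6% of the other sites. The number of reads per site was not known, and a site with more reads is less often at exactly 0, so the part of depth in these shares was not tested.

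Wide regions of dense RRBS coverage were compared as a description, with a limit of 400 sites per 100 kb chosen after seeing the data. In 20 of 23449 bins of 100 kb at least 400 sites were measured, and 5 of these bins overlapped a Hox window. The Hoxa bin held more sites (819) than any other bin of the genome, and a Hoxd bin followed (632). These 5 bins had the 5 lowest means of the 20 (3.84% to 4.71%) and the 5 lowest shares of sites over 20% (0.977% to 2.44%). The next bin had a mean of 5.05%. By the median site the Hox bins (2.35% to 3.09%) were not the lowest, and another bin had 0.499%.

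Methylation outside the clusters differed by side. In the 150 kb before Hoxc, 35 sites averaged 42.0%, and in the 150 kb after Hoxb, 58 sites averaged 45.0%. By contrast, the 206 sites after Hoxa averaged 7.69% and the 177 sites before Hoxd 8.04%. The remaining flanks lay between 11.0% and 18.1%. The nearest flanking tile over 50% was 13 kb after Hoxb (79.8%) and 17 kb before Hoxd (92.6%), and in the 150 kb after Hoxd there was none. No flank separated STD from ENR libraries.

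Few sites broke the low level. A mean over 20% was seen at 55 Hox sites, of which 11 lay in Hoxa, 19 in Hoxb, 19 in Hoxc and 6 in Hoxd. Of the 55 sites, 37 were outside promoters and 45 were not island-like. By contrast, 67.2% of all Hox sites were in promoters and 61.8% were island-like. At 14 of them every library was over 20%, whereas 15 had at least 1 library at 0%.

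The highest methylation in any Hox cluster lay in the gap between Hoxb13 and Hoxb9, the widest interval between neighbouring Hox genes in that cluster. The tile of the printed stretch (chr11:96208001-96209000) measured 64.5%, 72.7% and 91.7% in STD and 78.4%, 91.0% and 82.5% in ENR. Its groups overlapped, with ENR 7.63 points higher. Further into the gap, the site at chr11:96226046 ranged from 61.1% to 100% over the libraries, and that at chr11:96231322 from 85.5% to 100%. From Hoxb9 onwards the site of the highest mean (68.8%) lay in an intron of the antisense transcript Hoxb3os near Hoxb2 (chr11:96350119), where STD measured 69.4%, 57.9% and 53.3% and ENR 94.7%, 56.2% and 81.0%. These ENR and STD values also overlapped.

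In Hoxa, the highest tile (chr6:52199001-52200000, 5 sites) lay between Hoxa4 and Hoxa5, in an exon of the overlapping transcripts of Hoxa3 and Hoxaas3. It measured 28.3%, 33.7% and 35.9% in STD and 30.1%, 20.8% and 23.2% in ENR. In Hoxc, an intron of Hoxc9 (chr15:102978001-102979000, 5 sites) measured 22.9%, 26.8% and 7.72% in STD and 32.9%, 24.9% and 22.0% in ENR. Hoxd had its highest tile in the DNA around the end of Hoxd4, in an intron of Hoxd3 (chr2:74729001-74730000, 4 sites), with 18.6%, 16.0% and 17.1% in STD and 27.7%, 17.6% and 12.5% in ENR. Libraries of both groups overlapped in all 3 tiles. Hoxd also had 1 site over 80%, in an intron of the long noncoding RNA Haglr, upstream of Hoxd1 (chr2:74759520), at 100%, 88.8% and 64.4% in STD and 98.4%, 86.5% and 76.4% in ENR.

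The remaining tiles that ranked in the upper 3 of their cluster were lower. In Hoxa these were tiles at Hoxa6 (14.8%) and Hoxa7 (13.5%), in Hoxb those at Hoxb2 (27.7%) and Hoxb5os (20.2%), in Hoxc those at Hoxc5 (11.4%) and Hotair (10.3%) and in Hoxd the start of Hoxd4 (9.38%) and an exon of Hoxd3 (8.75%). In all, 5 of 211 Hox tiles exceeded 20% (2.37%), compared with 54.5% of the 72181 tiles elsewhere.

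Single Hox genes ranged from 1.66% to 7.35%. A site was given to the protein-coding gene with the nearest start within 10 kb, which assigned 3452 Hox-window sites to Hox genes. The median Hox gene was at 3.95%, compared with 5.89% over 14819 genes with at least 5 sites. All 39 Hox genes lay under 10%, as did 62.1% of all genes, and no Hox gene lay under 1%, as did 4.83% of all genes. Transcripts of Hoxa3, Hoxc5, Hoxd3 and Hoxd4 run across their neighbours, so that sites in these stretches were counted for the gene with the nearest start only.

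**Figure D3:**
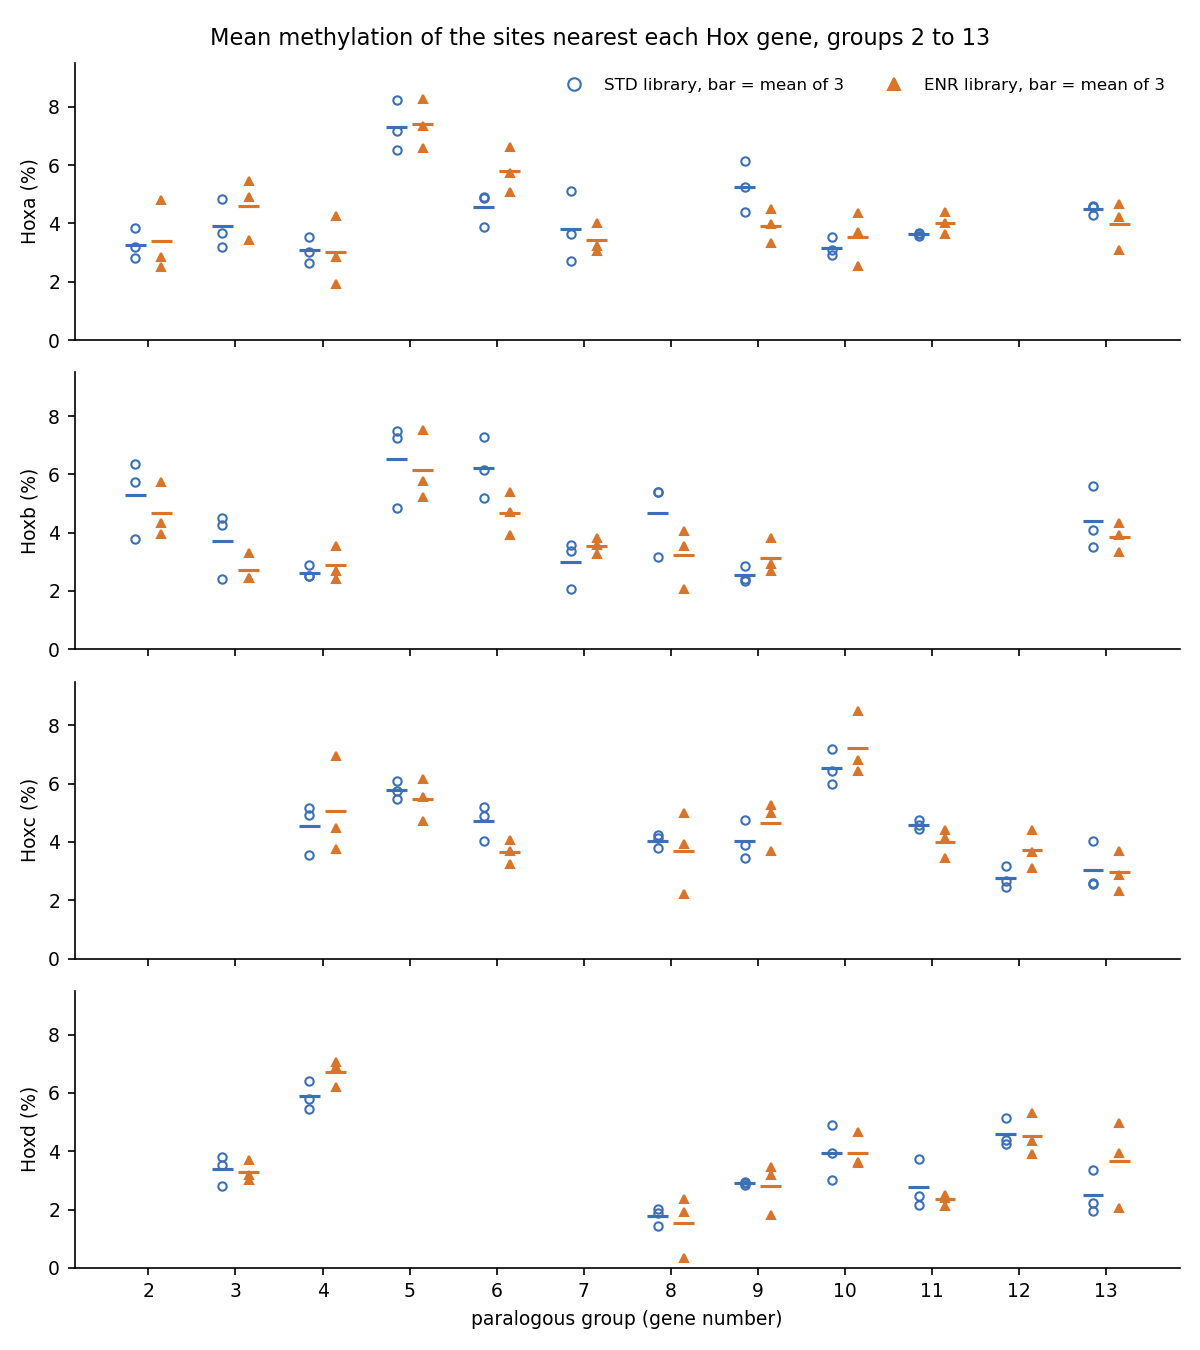
Mean methylation (%, vertical axis) of the sites nearest each Hox gene of paralogous groups 2 to 13, in each library, by cluster (rows) and group (horizontal axis). Open circles are STD and filled triangles ENR libraries, and bars are means of 3 mice. Group 5 genes and Hoxc10 and Hoxd4 stand above their neighbours, and STD and ENR overlap for all genes drawn except Hoxa6 and Hoxc11.

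Paralogous group 5 was the most methylated of the 13 groups. Hoxa5, which patterns the neck and the airways, measured 7.17%, 8.22% and 6.51% in STD and 7.35%, 8.28% and 6.60% in ENR. Hoxb5 measured 7.26%, 7.48% and 4.86% in STD and 5.21%, 5.77% and 7.51% in ENR. Hoxc5 had values of 5.47%, 5.75% and 6.09% in STD and 5.55%, 6.15% and 4.72% in ENR. The 223 sites of the group averaged 6.54% (5.82% to 7.31% over the libraries), which exceeded every library of the other 12 groups. Those groups averaged between 3.39% (group 3) and 4.87% (group 6). Along the axis, groups 1 to 4 averaged 3.81%, groups 5 to 8 averaged 4.78% and groups 9 to 13 averaged 3.80%, and hence the level did not run from one end of the clusters to the other.

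In Hoxa, Hoxa6 followed Hoxa5. Hoxa6 measured 4.90%, 4.88% and 3.87% in STD and 5.72%, 6.63% and 5.07% in ENR. The lowest genes of the cluster were Hoxa4, with 3.02%, 2.65% and 3.54% in STD and 4.27%, 1.94% and 2.84% in ENR, and Hoxa2, a selector gene of the branchial arches. Hoxa2 measured 3.83%, 2.82% and 3.18% in STD and 2.84%, 4.80% and 2.51% in ENR.

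In Hoxb, Hoxb6 and Hoxb2 followed Hoxb5. Hoxb6 measured 5.20%, 6.16% and 7.28% in STD and 4.69%, 3.92% and 5.38% in ENR. Hoxb2, which acts in facial motor neurons, measured 5.73%, 3.78% and 6.34% in STD and 5.75%, 4.33% and 3.95% in ENR. Hoxb4, known for expanding blood stem cells, was the lowest, with 2.5%, 2.88% and 2.52% in STD and 3.54%, 2.40% and 2.69% in ENR. Hoxb9 was next, with 2.86%, 2.34% and 2.40% in STD and 3.82%, 2.93% and 2.68% in ENR.

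In Hoxc, the highest gene was Hoxc10, used in motor neurons of the hindlimb level of the spinal cord, with 7.18%, 5.98% and 6.44% in STD and 6.80%, 8.47% and 6.42% in ENR. Within 1 kb of its starts Hoxc10 reached 8.44%, the highest of the 39 genes for this region. Hoxc4 measured 5.16%, 4.92% and 3.56% in STD and 6.93%, 4.49% and 3.75% in ENR. Hoxc13, which acts in hair follicles, was the lowest, with 2.54%, 4.04% and 2.58% in STD and 2.88%, 3.68% and 2.30% in ENR. Hoxc12 followed with 3.16%, 2.45% and 2.66% in STD and 3.10%, 3.66% and 4.41% in ENR.

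In Hoxd, Hoxd4, which is used in the caudal hindbrain, was the highest, with 6.40%, 5.80% and 5.46% in STD and 7.05%, 6.90% and 6.22% in ENR. Hoxd12 measured 4.24%, 5.15% and 4.38% in STD and 5.32%, 3.89% and 4.35% in ENR, and Hoxd10 measured 3.02%, 4.89% and 3.95% in STD and 4.65%, 3.59% and 3.63% in ENR. Hoxd8 was the lowest of all 39 genes, with 1.89%, 2.02% and 1.43% in STD and 2.35%, 0.338% and 1.91% in ENR. Hoxd11, which shapes the forearm, measured 2.45%, 2.16% and 3.75% in STD and 2.51%, 2.41% and 2.12% in ENR. Of the 35 pairs of neighbours in the order of levels within a cluster, 29 differed by less than the median SD between libraries of a group, 0.742 points.

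Starts and coding sequence of Hox genes had like levels. Within 1 kb of their own starts the 39 genes had a median of 2.99%, from 1.53% in Hoxb9 to 8.44% in Hoxc10, while the median over 13398 genes was 1.73%. In coding sequence, 35 Hox genes had a median of 3.0%, from 0.939% in Hoxc4 to 8.90% in Hoxb5, and the median over 6793 genes was 6.21%. Coding sequence was higher than the start region in 15 of these 35 Hox genes. Of 672 Hox CpGs measured on both strands, the median difference between strands was 1.73 points.

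Noncoding genes within the clusters shared the low level. Around the start of Mir196b (60 sites within 1 kb) the level was 3.87%, around Mir196a-1 (18 sites) 3.79%, around Mir196a-2 (24 sites) 2.99%, around Mir615 (37 sites) 5.57% and around Mir10b (9 sites) 4.85%. The start of Hottip, a noncoding RNA at the Hoxa13 end of Hoxa, measured 4.28% over 5 sites. No site lay within 1 kb of the outermost gene start of Mir10a, Hotairm1 or Hotair. The 15 sites inside the Hotair gene, between Hoxc12 and Hoxc11, averaged 11.5% and the 45 sites inside Hotairm1 averaged 4.04%. The Hotair sites chr15:102945576, chr15:102945780 and chr15:102946229 (21.2%, 25.1% and 21.6%) did lie near another annotated transcription start, at 217, 421 and 870 bp. The STD and ENR libraries overlapped at all 6 of the measured starts.

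ENR and STD were compared at each level, first by gene. With limma, 0 of 39 Hox genes differed at an adjusted p under 0.05, as did 0 of the 14809 genes tested (0% called), and the smallest adjusted p of a Hox gene was 0.999. At an unadjusted p under 0.05 there were 0 Hox genes, against 3.74% of all genes. The ENR mean was lower for 24 Hox genes and higher for 15, and it was lower for 56% of all genes. This direction turned without ENR replicate 3 (16 lower and 23 higher) and without STD replicate 2 (19 lower and 20 higher). Differences lay between a decrease of Hoxb6 (fell by 1.55 points) and an increase of Hoxa6 (1.26 points), with a median of -0.08 points. STD and ENR libraries did not overlap for 2 Hox genes (5.13%), against 8.57% of all genes. They were Hoxa6, at 4.55% ± 0.59 in STD and 5.81% ± 0.78 in ENR (SD, n = 3), and Hoxc11, at 4.59% ± 0.15 in STD and 4.0% ± 0.49 in ENR, where the mean fell by 0.59 points.

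By 1 kb tile, 0 of 211 Hox tiles and 0 of 72222 tiles in all were called at an adjusted p under 0.05 and a difference over 25 points (0% called). An unadjusted p under 0.05 was found for 12 Hox tiles (5.69%), 6 higher and 6 lower in ENR, against 3.98% of all tiles. Groups did not overlap in 21 Hox tiles (9.95%), against 8.86% of all tiles. All adjusted p-values of Hox tiles were 1.

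The tiles with the lowest p in each cluster were mostly small differences at low levels. In Hoxb, a tile between Hoxb13 and Hoxb9 (chr11:96263001-96264000, 12 sites) measured 6.50%, 5.72% and 6.67% in STD and 3.34%, 1.15% and 1.80% in ENR (difference -4.20 points). A larger difference was seen in an intron of Hoxb3 (chr11:96338001-96339000, 3 sites), with 24.6%, 17.8% and 31.1% in STD and 12.7%, 8.33% and 2.53% in ENR (difference -16.66 points). This difference rested on 1 of the 3 sites, at position 96338973, which alone fell by 51.4 points. In Hoxa, the tile chr6:52177001-52178000 (19 sites) in transcripts of Hoxa3 measured 2.67%, 2.17% and 1.70% in STD and 4.20%, 4.0% and 4.72% in ENR (difference 2.13 points). In these 3 tiles every library of one group lay above every library of the other.

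Another Hoxa tile, in an exon of Hoxa3 (chr6:52170001-52171000, 12 sites), measured 3.06%, 1.48% and 2.30% in STD and 5.74%, 9.13% and 3.57% in ENR (difference 3.86 points). In Hoxc, between Hotair and Hoxc11 (chr15:102949001-102950000, 7 sites), STD had 6.12%, 8.90% and 6.41% and ENR 2.12%, 0% and 5.71% (difference -4.53 points), and the tile chr15:102943001-102944000 (14 sites) had 2.03%, 1.52% and 0.469% in STD and 4.72%, 2.21% and 2.79% in ENR (difference 1.90 points). In Hoxd, an exon of Hoxd3 (chr2:74747001-74748000, 7 sites) had 1.60%, 5.74% and 7.69% in STD and 11.8%, 16.3% and 9.33% in ENR (difference 7.47 points). The other Hoxd tile, chr2:74714001-74715000 (6 sites), had 8.74%, 4.76% and 6.01% in STD and 4.81%, 2.35% and 0.995% in ENR (difference -3.79 points). In the last of these the groups overlapped, and the adjusted p of each of these tiles was 1.

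By site, 0 of the 2876 Hox sites that varied between libraries were called, as were 0 of 615152 sites in all (0% called). The 680 Hox sites at 0 in each library could not be tested. An unadjusted p under 0.05 was found for 72 Hox sites (2.5%), 27 higher and 45 lower in ENR (42 and 31 after quantile normalization), against 2.68% of all sites. The split turned with the library left out, from 9 to 12 higher and 77 to 89 lower without 1 STD library to 47 to 64 higher and 9 to 13 lower without 1 ENR library. The smallest adjusted p was 0.852.

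Large differences were also counted by size alone. Group means were more than 25 points apart at 9 Hox sites (0.253%), 7 higher and 2 lower in ENR, whereas the share over the whole table was 1.94%. Of the sites over this limit in the whole table, 36.4% were higher in ENR. A difference of this size needs a site mean between 12.5% and 87.5%, which 158 Hox sites had. Of these, 5.70% differed by more than 25 points, against 9.01% of such sites in the whole table. There were 2 of the 9 sites in Hoxa, 5 in Hoxb, 2 in Hoxc and 0 in Hoxd.

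**Figure D4:**
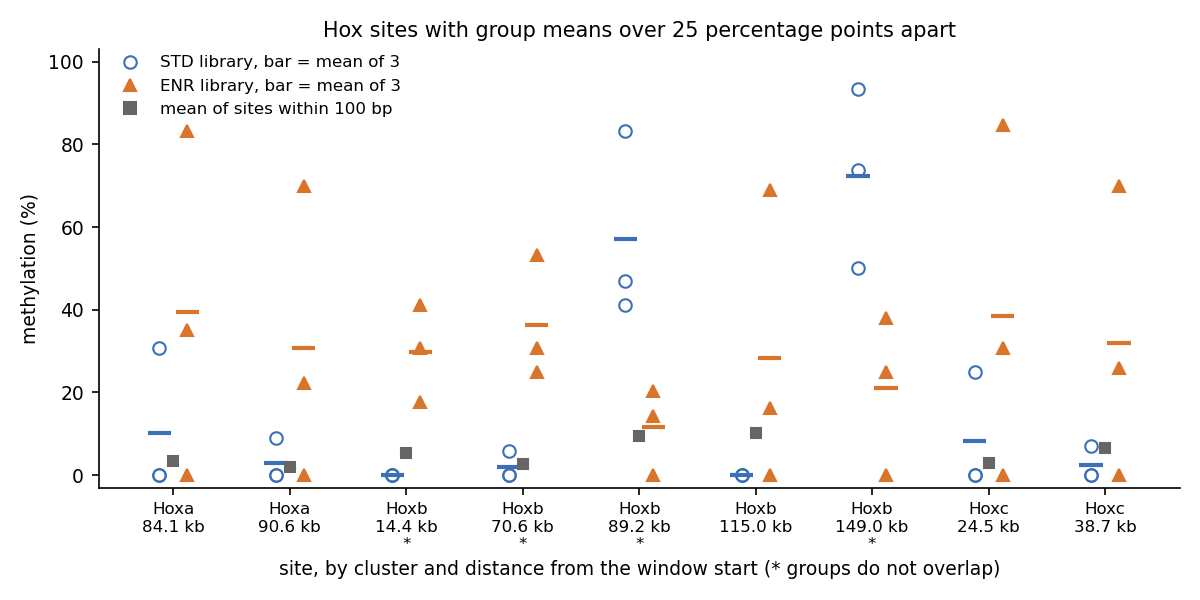
Methylation (%, vertical axis) of the 9 Hox sites with group means over 25 percentage points apart, by cluster and distance from the window start. Open circles are STD and filled triangles ENR libraries, bars are means of 3 mice, grey squares are means of the other CpGs within 100 bp, and asterisks mark sites without overlap. Asterisks stand at 4 Hoxb sites.

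At 4 of the 9 sites STD and ENR were fully apart, all in Hoxb and all on the minus strand, and 41.7% of such sites in the whole table were also without overlap. They are printed with 20 bases on each side, on the minus strand, so that the measured cytosine is the first base of the capitals in the middle of each run.

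chr11:96204416-96204456, between Hoxb13 and Hoxb9: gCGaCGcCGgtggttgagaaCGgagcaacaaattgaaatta
chr11:96260589-96260629, intron of the noncoding gene Gm53: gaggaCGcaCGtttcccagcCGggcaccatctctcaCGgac
chr11:96279213-96279253, between Hoxb9 and Hoxb8: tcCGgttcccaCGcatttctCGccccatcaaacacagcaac
chr11:96338953-96338993, intron of Hoxb3: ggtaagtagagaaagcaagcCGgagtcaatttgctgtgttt

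The site in the first run (position 96204436) measured 0%, 0% and 0% in STD and 41.2%, 17.6% and 30.8% in ENR, a difference of 29.9 points. The 6 other sites within 100 bp averaged 5.36% and were 6.47 points lower in ENR, opposite to the site itself. In the second run (96260609), STD had 5.77%, 0% and 0% and ENR 25%, 30.8% and 53.3% (34.4 points higher), while 6 sites nearby averaged 2.78% and were 3.04 points lower in ENR. In both runs, the measured cytosine thus stood alone among neighbours of low methylation.

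The other 2 sites were lower in ENR. The site in the third run (96279233) measured 83.3%, 47.1% and 41.1% in STD and 0%, 14.3% and 20.4% in ENR, which fell by 45.6 points. Its 4 neighbours within 100 bp averaged 9.52% and were 3.09 points lower in ENR. The site in the Hoxb3 intron (96338973) measured 73.9%, 50% and 93.3% in STD and 38.1%, 25% and 0% in ENR, which fell by 51.4 points, and no other site was measured within 100 bp. It is the site that carried the difference of the Hoxb3 tile given above. The adjusted p of all 4 sites was 0.852, and the opposite strand of these CpGs was not measured.

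At the 5 remaining sites the groups overlapped, since at least 1 ENR library was at 0% in each. Of these, 2 were in exons of Hoxa10, 1 in an exon of Hoxb5 and 2 near Hoxc12 and Hoxc11. At the Hoxb5 exon site (chr11:96304988) the values were 0%, 0% and 0% in STD and 0%, 16.1% and 69.0% in ENR. Single ENR libraries at 69.0% to 84.6% carried these 5 differences. The opposite strand of the same CpG was measured at chr6:52240613, chr11:96304988 and chr15:102939536. It averaged 3.02%, 5.79% and 6.84% there, with differences of -0.01, -6.58 and -2.34 points, so it did not share the rise.

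The 55 sites over 20% had mixed directions. Of them, 33 were higher and 22 lower in ENR, and groups did not overlap at 5. Of all sites over 20% in the table, 45.3% were higher in ENR and 7.27% were without overlap. In Hoxd all 6 such sites were higher in ENR, with groups apart at 1 of them, while the counts were 4 of 11 in Hoxa, 10 of 19 in Hoxb and 13 of 19 in Hoxc. Over all Hox sites, 1351 were higher, 1523 lower and 682 equal, but after quantile normalization of the libraries 1499 were higher and 1377 lower. Of the sites of the whole series, 283973 were higher, 330883 lower and 275185 equal.

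Genes that work with Hox proteins or control them were also described. Hox cofactors of the Pbx, Meis and Pknox families bind DNA together with Hox proteins, and 8 of the 9 had enough sites, with a median of 4.74%. ParaHox and Cdx genes, sisters and upstream regulators of the Hox clusters, had a median of 4.83% (6 of 6 measured), and the 16 Polycomb and trithorax regulators, which keep Hox genes silent or active, had 3.78%. Evx1 and Evx2, homeobox genes beside Hoxa13 and Hoxd13, were at 4.92% and 3.40%. None of these 32 genes passed the test (smallest adjusted p 0.999), with 13 higher and 19 lower in ENR. The smallest unadjusted p was that of Cbx2, a Polycomb subunit, at 6.69%, 7.94% and 6.45% in STD and 3.74%, 4.25% and 3.24% in ENR, which fell by 3.28 points (adjusted p 0.999).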

How the data were processed

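RRBS libraries of 6 mice were processed by the authors before deposit. Per the labels and the study's methods, reads were trimmed with Trim Galore and cutadapt and aligned to mm10 with Bismark, and methylKit kept cytosines with at least 10 reads. The submitters' notes name Trim Galore 0.4.0, cutadapt 1.8.1, Bismark 0.16.1 and methylKit 1.5.2. The deposited table gives the percent methylation of each cytosine in each library, with no value missing. Each site counts alike, whatever its depth, and depth beyond the minimum is unknown, so no counting interval is given.

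Sites were taken by window and annotated with GENCODE M21. limma 3.58.1 in R 4.3.3 (lmFit, eBayes with variance trend) compared ENR with STD on the percentage scale over all sites that varied, all 1 kb tiles with at least 3 sites and all protein-coding genes with at least 5 sites, with Benjamini-Hochberg adjustment. Site and tile calls needed an adjusted p under 0.05 and a difference over 25 points, and gene calls the adjusted p only. Only the tile test was tried on simulated data, with added shifts above the 25-point limit. That trial does not cover smaller shifts or the site and gene tests. The study's test on read numbers was not run because percentages do not hold them. Every mouse was a different animal, and p-values measure the spread between 3 mice per group.

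Named in full were, per cluster, the 3 genes of highest and 2 of lowest level, genes without overlap, the 3 highest tiles and 2 of lowest p, and non-overlapping sites over 25 points; 1 of these genes is not reported here. The Haglr, Hoxb gap, Hoxb3os and Hoxb5 sites and Cbx2 were named after seeing their values. The windows, genes and lists were chosen with earlier results of these data known. Alternatives changed the scale, variance model, normalization, region, limits, strands and libraries.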

Additional observations from a re-analysis of the deposited data

How the results depend on the processing

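No alternative called any Hox site, tile or gene: this held for all 14 alternatives of the site test, 11 of the tile test and 14 of the gene test, with limma. Unadjusted p-values under 0.05 numbered from 54 to 101 sites, 4 to 15 tiles and 0 to 2 genes. With the replicate number as a block, 0 Hox sites, tiles and genes were called. Each number joins different mice, so the numbers were not taken as pairs. Deviations of same-numbered libraries correlated at 0.0602, 0.0348 and 0.135. Of the 3 STD libraries, 2 correlated best with the ENR library of their number. Each replicate 3 correlated negatively with the other group's libraries of other numbers (-0.0644 to -0.0892). Whether libraries of 1 number shared a factor was not tested.

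The 9 Hox sites over 25 points became 19 with a limit of 20 points, 2 with 40 points, 18 with group medians and 4 when overlap was excluded. Leaving out 1 library gave 13 to 22 sites, and means of 2 libraries vary more than means of 3. The count was 14 without STD replicate 1, 16 without STD replicate 2, 17 without STD replicate 3, and 22 without ENR replicate 1 or ENR replicate 3.

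Differences of the cluster means, ENR minus STD, were -0.04 points in Hoxa, -0.17 in Hoxb, 0.07 in Hoxc and 0.01 in Hoxd. With quantile normalization they were 0.51, 0.33, 0.55 and 0.51, so all 4 were then higher in ENR. Over only the sites from 20% to 80% they were -2.10, -6.62, 3.91 and 13.6, the last over 5 sites. The mean of tile means gave -0.57 in Hoxb. The direction in Hoxa, Hoxc and Hoxd changed with 1 library left out. With a limit of 90%, the share of highly methylated sites was 0.225% in Hoxb and 0% in Hoxd, against 0.451% and 0.106% with 80%. The count of Hox genes higher in ENR ran from 13 to 23 of 39 with 1 library left out. The causes were not tested. With 3 mice per group and at least 10 reads per site, small differences near 0% could not be resolved. Large differences were not called either. With limma 0 of 615152 sites passed, although group means were over 25 points apart at 17268 sites of the table. The Hoxb3 intron site that fell by 51.4 points had an adjusted p of 0.852. The absence of calls therefore does not show that large differences were absent.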
